A study of Homo sapiens with 6 samples.

Results

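The semaphorin, plexin, neuropilin, ephrin and Eph receptor genes were taken from a table of read counts in A549, a long-established cell line from a human lung adenocarcinoma, by matching gene symbols to the names of these families. The match found 53 of 62703 genes in the table. They comprised 20 semaphorins (7 secreted ones of class 3 and 13 membrane-bound ones of classes 4 to 7), 9 plexins, 2 neuropilins, 8 ephrins (5 of type A and 3 of type B) and 14 Eph receptors (9 EPHA and 5 EPHB). The cells were grown in a hydrogel named AlgLung or in one named S-AlgLung, with 3 libraries for each, of cells kept beforehand in a medium with fetal bovine serum. No genetic change or drug is named for either group, and the labels give neither the culture time nor the meaning of the S. The series is titled for sulfation of the matrix around tumour cells. All libraries came from a single cell line, and nothing in the labels tells separate cultures from repeats of one. The p-values thus measure the spread among these libraries, which may be technical. That spread was larger than counting error alone gives. The chi-square per degree of freedom for a pair of libraries of the same hydrogel was lowest at 16.64 (AlgLung replicates 2 and 3). It was highest at 112.3 (S-AlgLung replicates 1 and 3). The source of the spread was not tested.

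Semaphorins and ephrins are known as cues that steer growing axons, and epithelial and cancer cells use the same genes in adhesion and migration. Semaphorins signal through plexins, which act on small GTPases. Most secreted class 3 semaphorins also need a neuropilin as co-receptor, and neuropilins bind VEGF as well. Ephrins are tethered to the cell surface and activate Eph receptor tyrosine kinases on a neighbouring cell. A-type ephrins hold to the membrane by a lipid anchor and mostly bind EPHA receptors, whereas B-type ephrins span the membrane and mostly bind EPHB receptors.

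Total counts ran from 22978408 to 26495444 per library, and the 53 genes took up 0.246% to 0.315% of them. A gene was tested where its counts passed a filter on low values (edgeR's filterByExpr, minimum count 10), which kept 40 of the 53. All 9 markers listed for A549-type lung epithelium were above 1 CPM (counts scaled to a common library size) in every library. Their sums ran from 27900 to 32500 CPM in AlgLung and from 18000 to 28600 in S-AlgLung. Of the markers of other cell types, 5 of 7 fibroblast, 3 of 5 endothelial and 4 of 5 leukocyte genes were under 1 CPM in every library, and none was at 0 in all libraries. Of 6 neuron or Schwann cell genes, 4 were above 1 CPM in every library, with sums of 69.8 to 105 CPM in AlgLung and 62.5 to 79.7 in S-AlgLung, the highest gene being SYT1. The summed leukocyte markers, most of which was CD14, ran from 31.9 to 36.3 CPM in AlgLung and from 46.9 to 62.6 in S-AlgLung. Summed proliferation markers (MKI67, TOP2A, CDC20 and BIRC5) ran from 81.0 to 114 CPM in AlgLung and from 17.1 to 28.3 in S-AlgLung. The part of these shifts in the values below was not tested. S-AlgLung replicate 3 stood apart from the other S-AlgLung libraries on the second principal component (49.22, against -20.25 and -33.36), and calls that change when it is left out are given both ways. In bulk RNA of this kind, fewer cells that express a gene and less of its RNA per cell cannot be told apart.

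Of the 40 tested guidance genes, the A-type ephrin EFNA1 was the only member called between the hydrogels. It rose 1.83-fold in S-AlgLung, and no member was called lower. The test was edgeR's quasi-likelihood F test with Benjamini-Hochberg adjustment over all 18544 tested genes and a threshold of 0.05, and it called 5.14% of all tested genes (3.15% higher and 1.99% lower). The remaining 39 members missed that threshold, and the median log2 fold change of all 40 was 0.12, against 0.03 over all tested genes. Fold changes are S-AlgLung over AlgLung throughout. At an unadjusted p under 0.05 stood 12 of the 40 members, or 30.0%, against 14.9% of all tested genes. In 10 members, or 25%, the hydrogels had no overlap of their 3 values each, against 18.4% of all tested genes. Of these, 9 were higher in S-AlgLung (10.4% of all tested genes) and 1 was lower (8.05%). A log2 fold change of at least 0.5 in size in addition was found in 8 members, and in 12.5% of all tested genes.

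**Figure D1:**
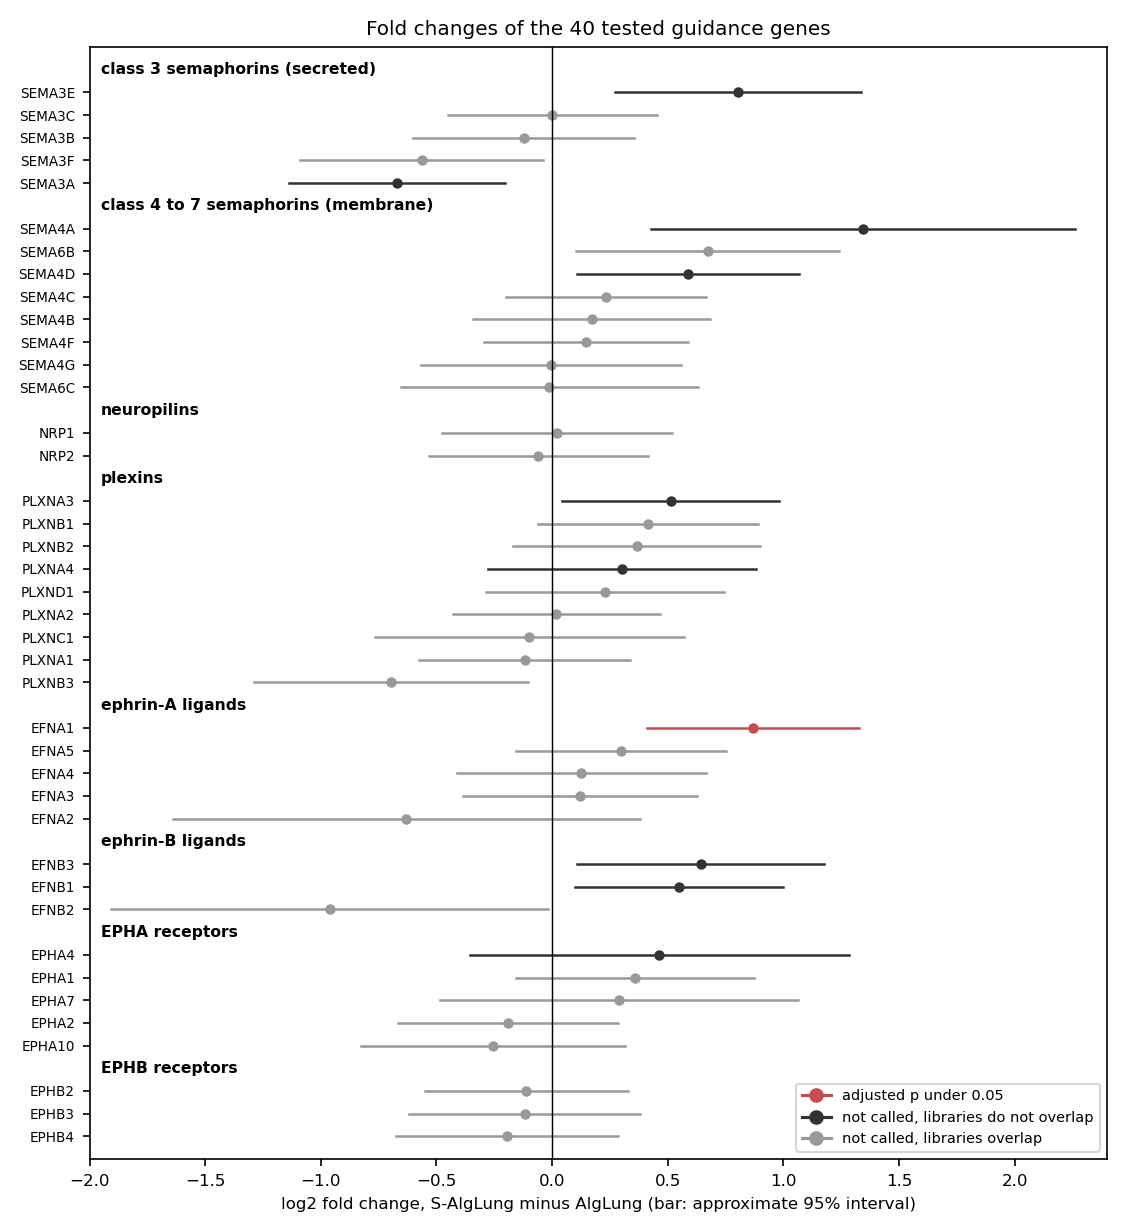
Log2 fold change (S-AlgLung minus AlgLung) of each of the 40 tested genes by class, with points for the estimate and bars for an approximate 95% interval. EFNA1, in red, is the only gene called; dark points are genes whose libraries did not overlap between hydrogels and grey points are the rest.

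Upstream sequence was available from RefSeq for 35 of the 40 tested members. Printed here are the 250 bases before the start of EFNA1, the called gene, and of EFNB1 and SEMA3E, a ligand of each other system whose libraries did not overlap. They lie at chr1:155127626-155127875 on the plus strand, chrX:68828771-68829020 on the plus strand and chr7:83649140-83649389 on the minus strand (GRCh38.p14, the outer of the listed starts for SEMA3E). Each is written 5′ to 3′ along the gene, with capitals marking matches, on either strand, to GGGCGG (a GC box), ACGTG (the core of a hypoxia response element), CACGTG (an E-box, which holds ACGTG on both strands), TGACTCA (an AP-1 site) or CCAAT.
EFNA1: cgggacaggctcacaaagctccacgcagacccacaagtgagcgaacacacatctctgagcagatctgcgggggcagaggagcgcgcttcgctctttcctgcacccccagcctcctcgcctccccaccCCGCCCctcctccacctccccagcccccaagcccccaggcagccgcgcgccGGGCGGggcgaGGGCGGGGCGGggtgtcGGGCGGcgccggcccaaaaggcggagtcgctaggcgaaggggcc
EFNB1: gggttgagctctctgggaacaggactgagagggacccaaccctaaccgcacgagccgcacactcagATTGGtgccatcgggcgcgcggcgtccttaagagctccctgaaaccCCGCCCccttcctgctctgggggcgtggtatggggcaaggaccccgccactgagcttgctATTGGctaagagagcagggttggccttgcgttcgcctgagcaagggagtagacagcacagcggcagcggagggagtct
SEMA3E: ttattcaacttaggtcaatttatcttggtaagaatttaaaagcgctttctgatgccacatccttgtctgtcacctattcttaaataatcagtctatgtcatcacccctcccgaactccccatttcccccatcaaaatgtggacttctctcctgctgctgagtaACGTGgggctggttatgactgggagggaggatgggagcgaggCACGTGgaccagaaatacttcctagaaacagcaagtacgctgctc
EFNA1 had 5 GC boxes and 73.2% G and C, and EFNB1 had 1 GC box and 2 CCAAT matches. SEMA3E had no GC box, 1 E-box, 3 ACGTG matches (counting both strands of that E-box) and 46.4% G and C. A GC box was present in 29 of the 35 member windows, or 82.9%, against 42.3% of 27305 windows (1 per gene), and the median G and C content was 69.6% and 58.0%. The 35 windows belong to members that passed the filter on low counts, whereas the 27305 include genes that did not. Windows of tested genes alone were not counted, so these gaps cannot be assigned to the gene families. ACGTG was in 11.4% of member windows against 18.7% of all, and CCAAT in 34.3% against 33.0%. TGACTCA was in 0 of the 35 and in 4.16% of all windows. These matches describe the letters in the windows, and binding of a factor was not measured.

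Among the A-type ephrins, EFNA1 (chromosome 1, 155127876 to 155134899, GRCh38) was the most abundant per length. This ephrin is a high-affinity ligand of EPHA2 and was first found as a gene that cells switch on in response to inflammatory cytokines. Its level was 29.1, 41.2 and 36.4 CPM in AlgLung replicates 1, 2 and 3 and 63.6, 55.5 and 75.5 CPM in S-AlgLung. Every S-AlgLung library lay above every AlgLung library, and the means were 35.6 ± 6.11 and 64.8 ± 10.0 CPM (mean ± SD, n = 3). The log2 fold change was 0.87 (SE 0.22, approximate 95% interval 0.41 to 1.33, edgeR adjusted p = 0.0167). By p, EFNA1 ranked 639 among all tested genes. The call was lost without AlgLung replicate 1 (log2 fold change 0.69, adjusted p = 0.216), without AlgLung replicate 3 (0.83, adjusted p = 0.159) and with libraries scaled by total counts alone (0.79, adjusted p = 0.0622). Without S-AlgLung replicate 3, the library with the highest EFNA1 value, the gene was still called at 0.71 (adjusted p = 0.0103).

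The other 4 A-type ephrins were not called. EFNA5, a widely expressed ephrin that binds several EPHA receptors, was at 35.0, 27.3 and 28.7 CPM in AlgLung and at 36.6, 28.7 and 46.6 CPM in S-AlgLung. Its groups overlapped, and its log2 fold change was 0.30 (SE 0.22, edgeR adjusted p = 0.610), 0.07 if S-AlgLung replicate 3 was left out and 0.45 if replicate 2 was. EFNA3 and EFNA4 were at 0.12 and 0.13 on the log2 scale, and both turned negative without AlgLung replicate 1 (-0.12 and -0.04), EFNA4 also without S-AlgLung replicate 1 (-0.06). These neighbouring genes share exon bases on the same strand with the read-through gene EFNA4-EFNA3. That gene had 104.1% of the counts of EFNA3 and 120.9% of those of EFNA4. The shared part was 43.9% of the exon bases of EFNA3 and 189 of the 1257 exon bases of EFNA4. Reads from the shared part cannot be assigned to one gene. EFNA2 lay under 1 CPM in every library, with 68 counts in all.

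The B-type ephrins EFNB1 and EFNB3 had higher values in every S-AlgLung library than in any AlgLung library, without passing the threshold. EFNB1, a transmembrane ephrin known for its part in forming tissue boundaries, was at 18.8, 19.6 and 18.1 CPM in AlgLung and at 25.6, 22.0 and 35.0 CPM in S-AlgLung. The 3 AlgLung values lay close together and the S-AlgLung values spread widely, with replicate 3 the highest. Its log2 fold change was 0.55 (SE 0.22, edgeR adjusted p = 0.195) and 0.30 without S-AlgLung replicate 3. EFNB3 was at 3.49, 6.79 and 5.96 CPM in AlgLung and at 8.71, 9.63 and 7.0 CPM in S-AlgLung. The highest AlgLung value and the lowest S-AlgLung value of EFNB3 were close, and its log2 fold change was 0.64 (SE 0.26, edgeR adjusted p = 0.206). EFNB3 was lowest of the S-AlgLung libraries in replicate 3, and in a fit leaving that one out it passed, at 0.73 (adjusted p = 0.0301). Without AlgLung replicate 1, its lowest library, EFNB3 was at 0.36 (adjusted p = 0.757). EFNB2, the ephrin of arterial endothelium and a ligand of EPHB4, was under 1.1 CPM in every library. It stood at -0.96 (SE 0.46, edgeR adjusted p = 0.323), with 91 counts in all 6 libraries and overlapping groups.

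**Figure D2:**
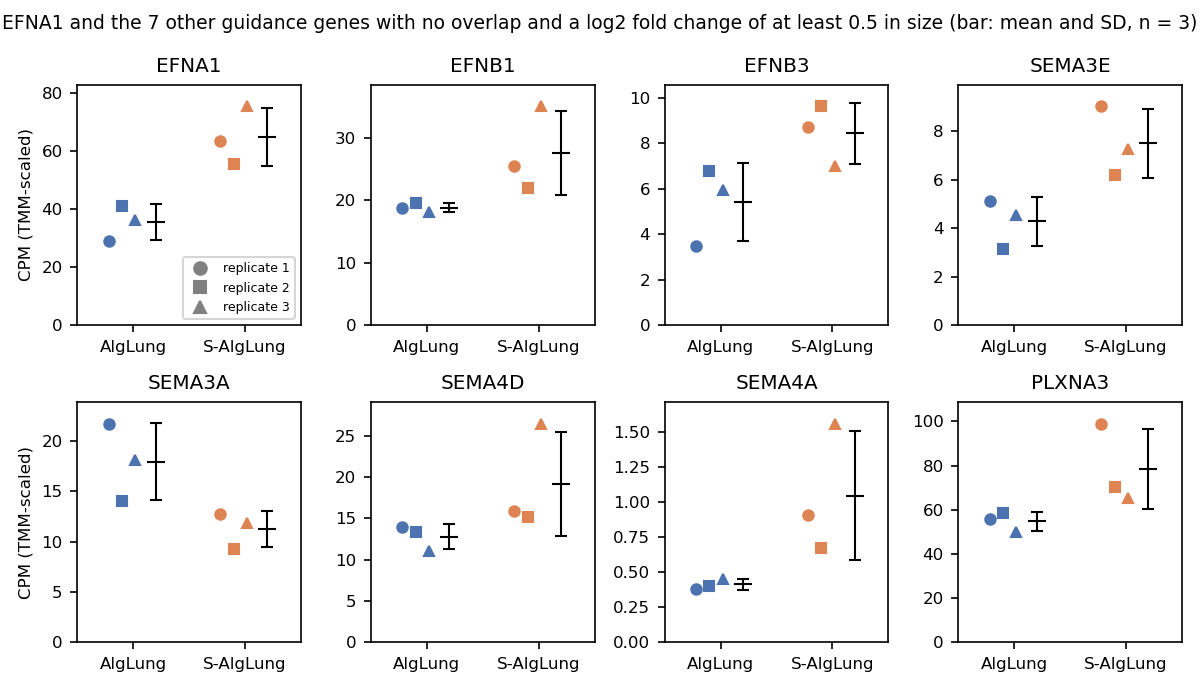
TMM-scaled CPM (vertical axis from 0) of EFNA1 and of the 7 other members whose libraries did not overlap and whose log2 fold change was at least 0.5 in size, by hydrogel. Symbols mark the replicate and bars the mean and SD of 3 libraries. EFNA1, EFNB1, SEMA4D and SEMA4A were highest in S-AlgLung replicate 3, and SEMA3A was lower in S-AlgLung.

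None of the 8 tested Eph receptors was called by edgeR or had an unadjusted p under 0.05, and 1 of them, EPHA4, had groups that did not overlap. EPHA2, the most abundant Eph receptor per length here and a frequent object of study in lung adenocarcinoma, was at 131, 155 and 121 CPM in AlgLung and at 125, 111 and 122 CPM in S-AlgLung. These ranges overlapped, with a log2 fold change of -0.19 and an approximate 95% interval from -0.66 to 0.28 (edgeR adjusted p = 0.804). The interval leaves out a doubling and a halving of this receptor's RNA. EPHA1, the founding member of the family, was at 36.4, 46.9 and 44.0 CPM in AlgLung and at 72.4, 59.9 and 31.1 CPM in S-AlgLung. Its S-AlgLung values thus held both the highest and the lowest of the 6. The log2 fold change of EPHA1 was 0.36 with all libraries (edgeR adjusted p = 0.578), and leaving out S-AlgLung replicate 3 made it a called gene at 0.61 (adjusted p = 0.0395). It was at 0.10 without S-AlgLung replicate 1 (adjusted p = 0.934) and at 0.22 without AlgLung replicate 1. A stretch of 82 exon bases of EPHA1 overlaps ZYX on the other strand, which had 491.0% of its counts, and whether counting used strand is stated in no source used here.

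Among the EPHB receptors, EPHB4 was the most abundant per length. This receptor, known for its role in veins, was at 96.6, 109 and 94.1 CPM in AlgLung and at 107, 88.3 and 66.9 CPM in S-AlgLung, a log2 fold change of -0.20 (interval -0.68 to 0.29, edgeR adjusted p = 0.801). EPHB3, a receptor that helps to sort epithelial cells in the intestinal crypt, was at 7.90, 11.0 and 7.37 CPM in AlgLung and at 9.43, 8.57 and 6.18 CPM in S-AlgLung. Its log2 fold change was -0.12, and it turned to 0.07 without AlgLung replicate 2 and to 0.01 without S-AlgLung replicate 3. EPHB2 was at -0.11. All 3 EPHB receptors had their highest value in AlgLung replicate 2 and their lowest in S-AlgLung replicate 3. The less abundant EPHA receptors were EPHA4 (0.575 to 0.854 CPM in AlgLung and 0.924 to 1.04 in S-AlgLung), EPHA7 (1.03 to 1.92 and 1.225 to 2.58) and EPHA10 (3.60 to 6.13 and 3.09 to 5.025). Their log2 fold changes were 0.46, 0.29 and -0.26, and single libraries moved each by over 1.5 times. EPHA4 was at 0.28 without AlgLung replicate 1, EPHA7 at -0.14 without S-AlgLung replicate 1, and EPHA10 at -0.09 without S-AlgLung replicate 3. Of the 6 Eph receptors that were not tested, EPHA3 and EPHA8 had 0 counts in all 6 libraries, which allows a level of up to 0.0205 CPM (3 counts over all libraries, counting error only). EPHA5, EPHA6, EPHB1 and EPHB6 had 46, 1, 1 and 28 counts.

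The secreted class 3 semaphorins held members with opposite signs. SEMA3E signals through PLXND1 without needing a neuropilin. It was at 5.14, 3.15 and 4.55 CPM in AlgLung and at 9.02, 6.21 and 7.25 CPM in S-AlgLung, with no overlap between the groups. Its log2 fold change was 0.80 (SE 0.26, edgeR adjusted p = 0.0746), so it missed the threshold. SEMA3A, which repels axons through NRP1 and A-type plexins, was at 21.7, 14.03 and 18.1 CPM in AlgLung and at 12.7, 9.25 and 11.8 CPM in S-AlgLung. Its groups did not overlap either, and its log2 fold change of -0.67 (SE 0.23, edgeR adjusted p = 0.0975) missed the threshold. SEMA3A was the only member whose S-AlgLung values all lay below its AlgLung values. Without S-AlgLung replicate 3 both genes were called, SEMA3E at 0.79 (adjusted p = 0.0233) and SEMA3A at -0.74 (adjusted p = 0.0142). SEMA3E was also called without S-AlgLung replicate 2 (0.92, adjusted p = 0.0367).

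The 2 most abundant class 3 semaphorins overlapped between the hydrogels. SEMA3B, which lies in a region of chromosome 3 that lung cancers often lose, was at 138, 154 and 127 CPM in AlgLung and at 145, 117 and 123 CPM in S-AlgLung. Its log2 fold change was -0.12 (interval -0.60 to 0.35). SEMA3C was at 60.3, 43.4 and 50.1 CPM in AlgLung and at 56.3, 43.5 and 54.1 CPM in S-AlgLung. Its estimate was 0.00 (interval -0.45 to 0.45) and -0.10 with total-count scaling. SEMA3F, a ligand of NRP2 from the same region of chromosome 3 as SEMA3B, was at 8.85, 14.3 and 10.7 CPM in AlgLung and at 10.5, 7.18 and 5.33 CPM in S-AlgLung. Its groups overlapped and its log2 fold change was -0.56 (edgeR adjusted p = 0.289), -0.36 without AlgLung replicate 2 and -0.86 without S-AlgLung replicate 1. SEMA3D and SEMA3G were not tested, with 7 and 15 counts in all.

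None of the 8 tested membrane semaphorins was called by edgeR, and 3 of them had an unadjusted p under 0.05. In each of these 3 a single S-AlgLung library lay far above the other S-AlgLung libraries. SEMA4D, the ligand of PLXNB1, was at 13.9, 13.3 and 11.1 CPM in AlgLung and at 15.9, 15.2 and 26.4 CPM in S-AlgLung. Its groups did not overlap, and replicate 3 was far above the other S-AlgLung libraries. The log2 fold change was 0.59 (edgeR adjusted p = 0.196) with that library and 0.25 without it. SEMA4A, known for its role in immune cells, was likewise highest in S-AlgLung replicate 3, at 0.383, 0.405 and 0.455 CPM in AlgLung and 0.907, 0.676 and 1.56 CPM in S-AlgLung. Its log2 fold change of 1.34 (SE 0.45, edgeR adjusted p = 0.0889) was the highest of all members and rested on 110 counts in all 6 libraries. It was 0.89 without S-AlgLung replicate 3, and leaving out S-AlgLung replicate 2 gave a call at 1.57 (adjusted p = 0.0389). SEMA6B, a ligand of A-type plexins, was instead highest in S-AlgLung replicate 1. Its values were 18.1, 18.7 and 11.4 CPM in AlgLung and 41.1, 21.2 and 14.8 CPM in S-AlgLung. Its log2 fold change was 0.67 with all libraries (edgeR adjusted p = 0.218), 0.43 without AlgLung replicate 3 and 0.16 without S-AlgLung replicate 1. In the fit that left out S-AlgLung replicate 3, SEMA6B was called at 0.92 (adjusted p = 0.000472).

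SEMA4B and SEMA4G were the most abundant semaphorins per length. SEMA4B was at 375, 446 and 361 CPM in AlgLung and at 473, 383 and 476 CPM in S-AlgLung, a log2 fold change of 0.17 (interval -0.34 to 0.68). SEMA4G was at 218, 261 and 232 CPM in AlgLung and at 330, 241 and 138 CPM in S-AlgLung, so the S-AlgLung libraries held both extremes, and its estimate was 0.00 (interval -0.56 to 0.56) with all libraries, 0.23 if S-AlgLung replicate 3 was left out and -0.32 if replicate 1 was. Of the exon bases of SEMA4G, 22.9% overlap MRPL43 on the other strand, which had 60.8% of its counts. SEMA4C, SEMA4F and SEMA6C ranged from -0.01 to 0.23 on the log2 scale. SEMA5A, SEMA5B, SEMA6A, SEMA6D and SEMA7A had 1 to 47 counts in all and were not tested.

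**Figure D3:**
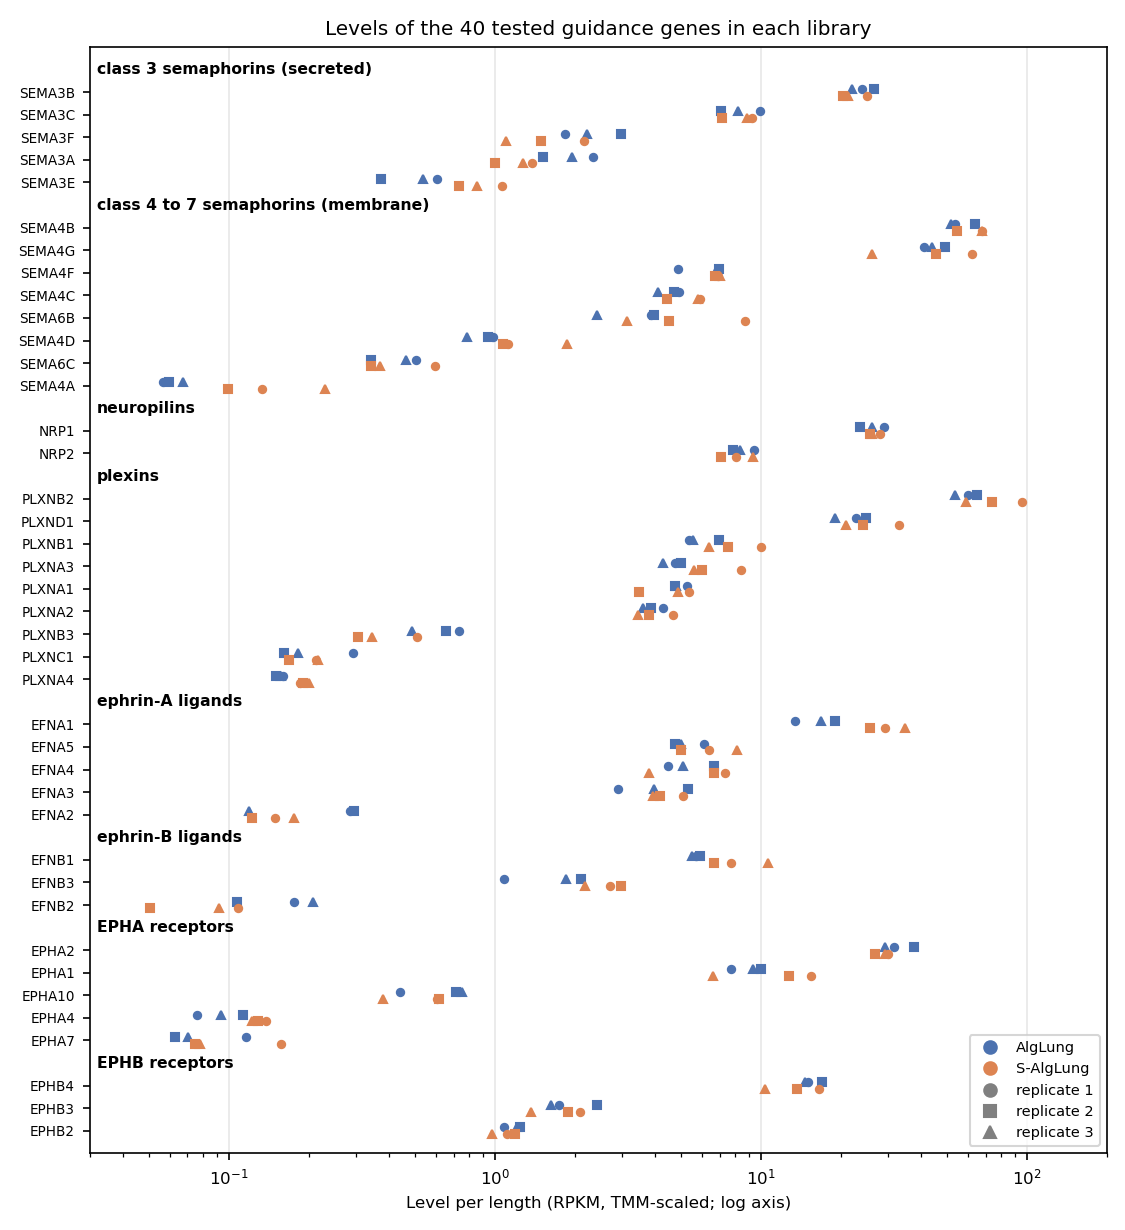
Level per length (RPKM, log axis) of each of the 40 tested genes in each library, grouped by class and sorted by mean within a class. Blue points are AlgLung and orange points S-AlgLung libraries, and symbols mark the replicate. PLXNB2, SEMA4B and SEMA4G had the highest means, and the lowest members were near 0.1 RPKM.

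The values of both neuropilins overlapped between the hydrogels. NRP1, the co-receptor for SEMA3A and VEGFA, was at 335, 273 and 301 CPM in AlgLung and at 323, 297 and 302 CPM in S-AlgLung. NRP2 was at 131, 109 and 116 CPM in AlgLung and at 112, 98.8 and 130 CPM in S-AlgLung. Their log2 fold changes were 0.02 (interval -0.48 to 0.52) and -0.06 (interval -0.53 to 0.41), and the sign turned for NRP1 in 5 of the 14 other settings (-0.09 with total-count scaling) and for NRP2 without S-AlgLung replicate 2 (0.03). Each interval spans 0 and leaves out a doubling of the RNA.

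All 9 plexins passed the filter, none was called by edgeR, and 2 (PLXNA3 and PLXNB3) had an unadjusted p under 0.05. PLXNB2 was the most abundant of all members per length, with a mean of 59.4 RPKM (CPM per kilobase of exon) in AlgLung and 76.5 RPKM in S-AlgLung. Its values were 435, 471 and 389 CPM in AlgLung and 700, 539 and 430 CPM in S-AlgLung, with overlapping groups. The log2 fold change of PLXNB2 was 0.37 (interval -0.17 to 0.90, edgeR adjusted p = 0.590) and 0.17 without S-AlgLung replicate 1. PLXND1, the receptor for SEMA3E, followed at 219, 238 and 182 CPM in AlgLung and 316, 232 and 200 CPM in S-AlgLung, a log2 fold change of 0.23 (edgeR adjusted p = 0.775). PLXNA3 was at 55.8, 58.6 and 50.1 CPM in AlgLung and at 99.0, 70.6 and 65.5 CPM in S-AlgLung, without overlap. This plexin, which serves class 3 semaphorins together with neuropilins, had a log2 fold change of 0.51 (SE 0.23, edgeR adjusted p = 0.271), 0.59 without S-AlgLung replicate 3 (adjusted p = 0.0495) and 0.31 without S-AlgLung replicate 1.

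The plexins shared a pattern across libraries with some other classes. S-AlgLung replicate 1 was the highest of the 6 libraries in 6 of the 9 plexins. The same held for 3 of 5 tested EPHA receptors and 4 of 8 tested membrane semaphorins, but for only 0 or 1 member of each other class. Over all 40 members that library was the highest in 37.5% and the lowest in 0, against 16.3% and 15.1% of all tested genes. PLXNB3 stood at the low end of the class with -0.70 (edgeR adjusted p = 0.224). It was at 5.14, 4.59 and 3.44 CPM in AlgLung and at 3.58, 2.15 and 2.42 CPM in S-AlgLung, with a slight overlap, and 20.4% of its exon bases overlap SRPK3 on the same strand, which had 34.8% of its counts. PLXNB1, PLXNA4, PLXNA2, PLXNC1 and PLXNA1 lay between -0.12 and 0.41 on the log2 scale, with PLXNB1 the highest at 0.41 and at 0.22 without S-AlgLung replicate 1.

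By class, of 21 tested ligands, 1 rose and none was called lower, 6 were higher and 1 was lower without overlap, and 10 had an unadjusted p under 0.05. Non-overlapping ligands were thus 33.3% of those tested, against 18.4% of all tested genes, and ligands at that p 47.6%, against 14.9%. Of 19 tested receptors none was called, and 3 were higher and 0 lower without overlap. Non-overlapping receptors were 15.8% of those tested, against 18.4% of all tested genes in either direction and 10.4% higher in S-AlgLung. An unadjusted p under 0.05 was found in 2 receptors (10.5%, against 14.9%). These receptor shares rest on few genes. The median log2 fold change was 0.15 for ligands and 0.02 for receptors, and with total-count scaling it was 0.06 for ligands and turned to -0.10 for receptors. A difference between ligands and receptors was not tested, since the genes are not replicates of a class. Medians were 0.55 for the 3 B-type ephrins, 0.13 for the 5 A-type ephrins, 0.20 for membrane semaphorins, -0.12 for class 3 semaphorins, 0.23 for plexins, 0.29 for EPHA receptors and -0.12 for EPHB receptors, and none of these turned in sign with total-count, upper-quartile or DESeq2 scaling.

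Summed per length, the A-type ephrins stood at 27.2, 36.1 and 31.0 RPKM in AlgLung and at 48.3, 41.6 and 50.9 RPKM in S-AlgLung. The B-type ephrins stood at 6.95, 8.14 and 7.55 RPKM in AlgLung and at 10.6, 9.69 and 12.9 RPKM in S-AlgLung. Neither sum overlapped between hydrogels, here or with libraries scaled by total counts alone. EFNA1 carried the A-type sum: the other 4 A-type ephrins summed to 13.8, 17.1 and 14.2 RPKM in AlgLung and to 19.0, 16.0 and 16.0 RPKM in S-AlgLung, which overlapped. EFNB1 held most of the B-type sum, at 5.49 to 5.92 RPKM in AlgLung and 6.65 to 10.6 in S-AlgLung. EPHA receptors (39.6 to 48.4 RPKM in AlgLung and 36.6 to 46.4 in S-AlgLung) and neuropilins (31.5 to 38.5 and 32.9 to 36.1) overlapped. Class 3 semaphorins (34.95 to 38.69 and 30.66 to 38.97) and membrane semaphorins (109.9 to 129.9 and 112.6 to 153.3) overlapped as well. So did plexins, at 91.73 to 111.2 RPKM in AlgLung and 101.1 to 158.7 in S-AlgLung. EPHB receptors summed to 17.5 to 20.7 RPKM in AlgLung and 12.7 to 19.8 in S-AlgLung. With total-count scaling every S-AlgLung library (13.9 to 18.1 RPKM) lay below every AlgLung library (18.2 to 19.99), S-AlgLung replicate 1 only just.

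Ratios of members within a library do not depend on the scaling between libraries, and 5 ratios were formed after the values had been seen. They set a ligand against a receptor, except that SEMA3E to SEMA3A sets a ligand against a ligand. The per-length level of EFNA1 was 0.423, 0.507 and 0.574 times that of EPHA2 in AlgLung and 0.9748, 0.953 and 1.19 times in S-AlgLung. Per length, RNA of the ligand was thus below RNA of its receptor in every AlgLung library and close to it in S-AlgLung. Protein was not measured. SEMA3E was at 0.259, 0.246 and 0.276 times the level of SEMA3A in AlgLung and at 0.776, 0.736 and 0.671 times in S-AlgLung. This ratio varied little within a hydrogel, at 0.260 ± 0.0150 and 0.728 ± 0.0528 (mean ± SD, n = 3). SEMA3A relative to NRP1 was 0.0732 ± 0.00845 in AlgLung and 0.0455 ± 0.00587 in S-AlgLung. EFNB1 relative to EPHB4 was 0.368 ± 0.0166 and 0.657 ± 0.315, and SEMA3E relative to PLXND1 was 0.0233 ± 0.00724 and 0.0345 ± 0.00575. The members that form these ratios were seen beforehand to differ without overlap in 1 or both terms, so that the ratios separate the hydrogels follows in part from the choice, and they are given as a description with no test.

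Which libraries entered the fit set how many members were called. Without S-AlgLung replicate 3, 6 members were called higher (EFNA1, EFNB3, EPHA1, PLXNA3, SEMA3E and SEMA6B) and SEMA3A was called lower, beside 8.28% of all tested genes. Without S-AlgLung replicate 2, EFNA1, SEMA3E and SEMA4A were called higher, beside 5.55% of all genes. Without AlgLung replicate 1 or 3 no member was called, beside 2.87% and 3.26% of all genes. Across the 14 other settings, EFNA1, EFNB1, EFNB3, SEMA3A, SEMA3E, SEMA4D, PLXNA3 and SEMA6B kept the sign of their fold change in each. So did members with small fold changes and no call, such as EPHA2 (-0.19), EPHB2 (-0.11), SEMA3B (-0.12) and SEMA4B (0.17). A kept sign thus did not set the named members apart, and all settings reuse these 6 libraries.

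**Figure D4:**
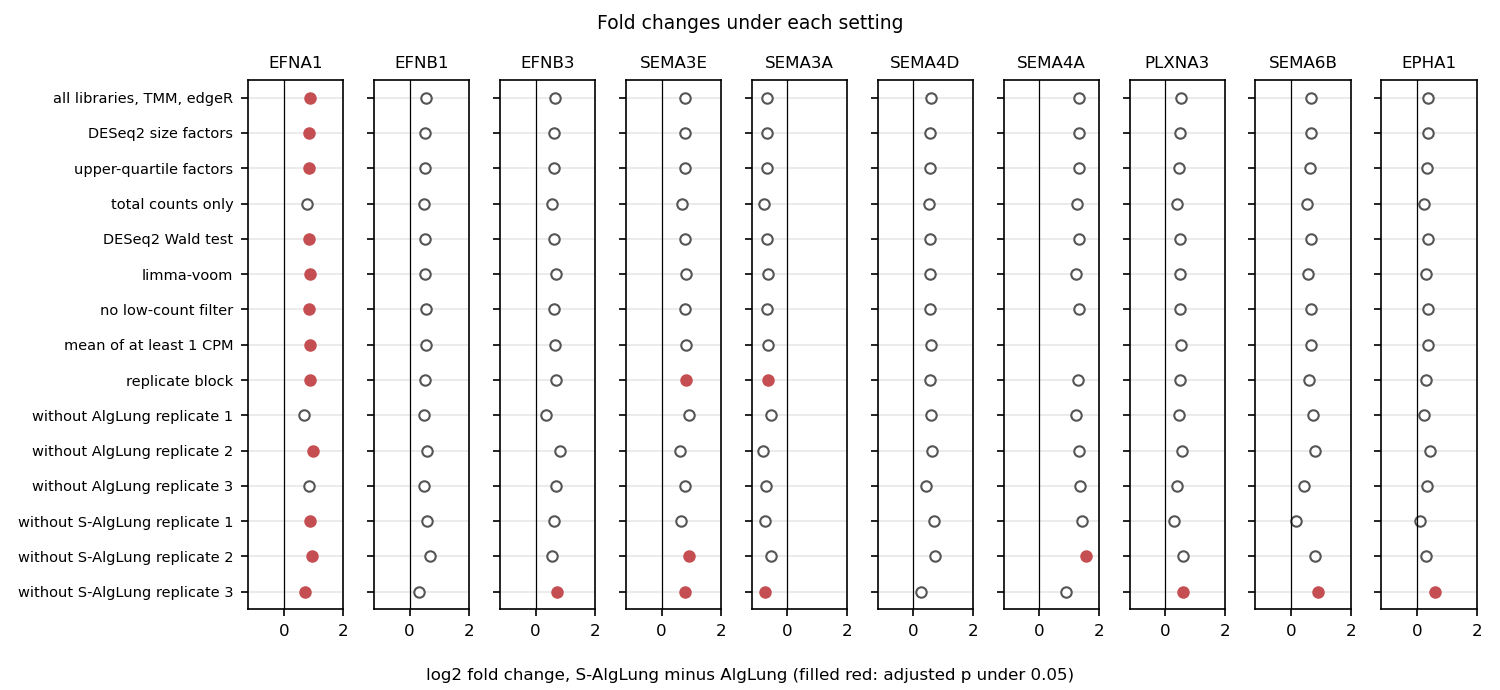
Log2 fold change (S-AlgLung minus AlgLung) of 10 members under each setting, filled red where the adjusted p was under 0.05. EFNA1 was called in 11 of 14 other settings, and without S-AlgLung replicate 3 the number of called members was highest. SEMA4A has no value where a mean of 1 CPM was required.

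Genes that work with these ligands and receptors were counted from 4 lists, to be read against the 5.14% called among all tested genes. Of 41 genes of semaphorin signalling, 37 were tested, 3 rose and 2 fell, with a median log2 fold change of -0.04. The adhesion molecule L1CAM, which pairs with NRP1 in the response of axons to SEMA3A, fell by 2.59 on the log2 scale (SE 0.26, edgeR adjusted p = 1.435e-07), from 12.5 ± 0.998 to 2.09 ± 0.440 CPM (mean ± SD, n = 3), and was called in every setting. DPYSL3, a collapsin response mediator protein that acts on the cytoskeleton, was at 61.3, 60.5 and 73.6 CPM in AlgLung and at 18.1, 25.4 and 30.4 CPM in S-AlgLung, without overlap. It fell by 1.40 (SE 0.23, edgeR adjusted p = 0.000156) and was called in every setting. PCSK6, a proprotein convertase, rose by 0.98 on the log2 scale, from 47.6 ± 4.12 to 93.6 ± 9.11 CPM (mean ± SD, n = 3). It was no longer called in fits that left out AlgLung replicate 1 (adjusted p = 0.0922) or 3 (0.106), and SNRPA1-DT, an overlapping gene on the other strand, had 35.5% of its counts. RND1, a small GTPase that binds plexins, rose from 36.4 ± 3.02 to 71.0 ± 35.4 CPM (edgeR adjusted p = 0.0256). S-AlgLung replicate 3 carried much of that at 111.5 CPM, against 45.6 and 56.0 CPM in the others, and without it RND1 was at 0.45 (adjusted p = 0.174). RND1 also missed the threshold when AlgLung replicate 1, 2 or 3 was left out (adjusted p = 0.177, 0.132 and 0.138), with total-count scaling (0.0866) and with limma-voom (0.0682). FYN, a kinase of the Src family that acts downstream of SEMA3A, rose from 0.770 ± 0.235 to 1.95 ± 0.218 CPM (edgeR adjusted p = 0.0302), but not when AlgLung replicate 1 or 2 (0.150 and 0.145) or S-AlgLung replicate 1 (0.127) was left out, nor with total-count scaling (0.114).

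Among 8 VEGF ligands and receptors, of which 5 were tested, VEGFA rose and no gene was called lower, with a median log2 fold change of 0.07. VEGFA, the angiogenic factor that shares NRP1 with SEMA3A, was at 28.7, 28.4 and 24.1 CPM in AlgLung and at 52.9, 44.2 and 85.7 CPM in S-AlgLung. The groups did not overlap, the log2 fold change was 1.17 (SE 0.24, edgeR adjusted p = 0.00201), and it was called in every setting. Of 34 genes that act with ephrins and Eph receptors, 32 were tested, 1 rose and 2 fell, with a median of -0.09. NGEF (ephexin-1), an exchange factor bound by EPHA receptors, was at 12.3, 15.2 and 15.1 CPM in AlgLung and at 4.99, 6.12 and 3.94 CPM in S-AlgLung. It fell by 1.5 (SE 0.24, edgeR adjusted p = 0.000109) and was called in every setting, although 8 of its exon bases overlap a gene on the other strand with 127.0% of its counts. ARHGEF16, a related exchange factor that binds EPHA2, rose from 10.1 ± 0.681 to 18.2 ± 2.51 CPM, a log2 fold change of 0.85 (edgeR adjusted p = 0.0154). Leaving out AlgLung replicate 1, 2 or 3 (adjusted p = 0.0798, 0.0623 and 0.229) or S-AlgLung replicate 1 (0.102), or scaling by total counts (0.123), ended that call. ADAM19, a membrane metalloprotease, fell by 2.22, from 2.46 ± 0.315 to 0.520 ± 0.110 CPM. It shares 62 exon bases with CYFIP2 on the other strand, which had 1895.4% of its counts.

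Of 26 genes of other guidance systems (Slits, netrins and their receptors), 13 were tested and 1 was called, with a median of -0.10. NTN4, a netrin of basement membranes that binds laminin, was at 78.0, 42.8 and 63.0 CPM in AlgLung and at 21.4, 15.8 and 24.5 CPM in S-AlgLung. It fell by 1.58 on the log2 scale (SE 0.24, edgeR adjusted p = 7.242e-05) and was called in every setting.

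**Figure D5:**
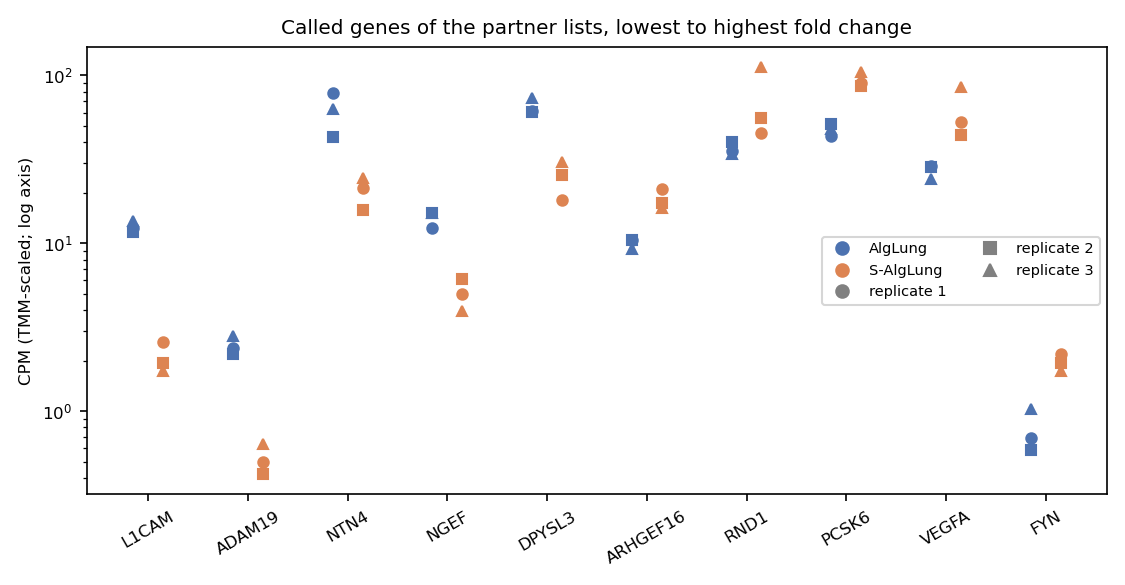
TMM-scaled CPM (log axis) of the 10 called genes of the partner lists in each library, ordered from the lowest to the highest fold change. Blue points are AlgLung and orange points S-AlgLung libraries. In each gene the hydrogels did not overlap, and L1CAM, ADAM19, NTN4, NGEF and DPYSL3 were lower in S-AlgLung.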

How the data were processed

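STAR 2.7.3a, featureCounts and GRCh38 are named in the submitters' processing notes; no annotation release or strand setting was found in the sources used here. The authors deposited raw read counts per gene, and per the file headers each gene's exons and merged exon length (another deposited column, used for RPKM). Symbols came from a gene name table that matched 62625 of 62703 IDs. A second column of AlgLung replicate 1 differed from the first in 0 genes, so both were used as 1 sample.

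All genes were fitted in edgeR 4.0.16 (R 4.3.3; filterByExpr with minimum count 10, TMM factors, quasi-likelihood F test without a block, Benjamini-Hochberg over 18544 genes), and the members' values were read from that fit. A standard error is |log2 fold change| over the root of its F statistic. CPM and RPKM are TMM-scaled, except where total-count scaling is named. The CPM of the cell type and proliferation markers and the bound of 0.0205 CPM also use total counts alone. RPKM uses the merged length of all exons, which understates genes with many alternative exons. Named with values were called members, members without overlap and at least 0.5 in log2 fold change, and the 2 most abundant members per class; other members were named after their values were seen. Called genes of the partner lists were named as well. Alternatives were DESeq2 size factors, upper-quartile factors, total counts, DESeq2 1.42.0 (Wald test), limma-voom (limma 3.58.1), no filter, a filter at a mean of 1 CPM, a block for the replicate number, leaving out each library, and an adjusted p under 0.01. Scripts were tested on simulated data. Members, lists and tests were chosen with earlier results of these data known. Of the tested members, 10 overlap a gene with at least 25% of their counts, so part of their reads may belong to it: EFNA3, EFNA4 and PLXNB3 on the same strand, and EFNB2, EPHA1, EPHB4, PLXNA3, PLXNC1, SEMA3F and SEMA4G on the other. The shared part ran from 5 exon bases of PLXNA3 to 43.9% of the exon bases of EFNA3. It was 1.1% for EPHB4, 2.3% for SEMA3F and 36.4% for EFNB2.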

Additional observations from a re-analysis of the deposited data

How the results depend on the processing

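With edgeR and all libraries, 1 member was called higher and 0 lower, as with DESeq2 and limma-voom; at an unadjusted p under 0.05 there were 8 higher and 4 lower. Members called higher numbered 0 with total counts only, 2 with the replicate block, 0 at an adjusted p under 0.01 and 0 to 6 when each library was left out in turn. Members called lower numbered 1 with the block and 0 to 1 with a library left out. Over all genes, 584 were called higher and 369 lower. Total counts gave 333 higher and 335 lower, with a shift of -0.10 (log2) in the median of the fold changes. The threshold of 0.01 gave 323 and 217. Leaving out a library gave 289 (without AlgLung replicate 1) to 891 (without S-AlgLung replicate 3) higher and 244 to 662 lower. Fits without a library hold fewer samples; otherwise the cause was not tested.

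The labels number replicates 1 to 3 in both hydrogels without saying what a number shares. Same-numbered libraries deviated from their group means with correlations of 0.072, 0.285 and 0.041, not over 0.1 in every pair, so the numbers were not taken to pair the libraries; not every library correlated best with its own number. With the replicate block, 7.01% of all genes were called, and SEMA3E (0.82, adjusted p = 0.0165) and SEMA3A (-0.66, adjusted p = 0.0271) joined EFNA1. Depth limits EFNA2, EFNB2, SEMA4A and EPHA4 most, the tested members with the fewest counts (68, 91, 110 and 123 in all).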
